A study of Mus musculus with 8 samples.

Results

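Secreted Wnt antagonists are proteins that cells release and that keep Wnt ligands from their receptors, and 10 genes encoding them were followed here, namely the secreted Frizzled-related protein (SFRP) genes *Frzb*, *Sfrp1*, *Sfrp2*, *Sfrp4* and *Sfrp5*, the Dickkopf (DKK) genes *Dkk1*, *Dkk2* and *Dkk3*, *Wif1* and *Notum*. They were found by gene symbol, 10 of the 54658 symbols in the table of RNA-Seq counts. The cells were primary murine articular chondrocytes from femoral heads, taken according to the methods from wild-type mice of 3 weeks of age. The study compared 4 samples treated with IL-1β, a proinflammatory cytokine of osteoarthritic joints, at 1 ng/mL for 24 h with 4 samples treated with vehicle. All samples came from cells grown in medium with serum. Neither the labels nor the methods say whether the 4 samples of a group came from separate mice or separate cultures, so the p-values measure the spread between these samples, which may be technical.

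Wnt proteins are lipid-modified ligands that bind Frizzled receptors and, in the β-catenin pathway, the co-receptors LRP5 and LRP6. SFRPs carry a cysteine-rich domain like that of Frizzled and bind Wnts outside the cell, WIF1 binds Wnts through a domain of its own, DKK1 and DKK2 bind LRP5 and LRP6, and NOTUM is a carboxylesterase that removes the lipid Wnts need. FRZB was first isolated from articular cartilage, where the balance of Wnt activity is known to matter for chondrocyte maturation and matrix loss.

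The total was 10992355 to 17104351 counts per IL-1β sample and 13970959 to 17456063 per vehicle sample, and 3 counts, the floor used here for detection, equalled 0.172 to 0.273 CPM, the field's unit for counts relative to the library total. A single gene, *Gm26917*, took 13.2 to 14.6% of the counts in every library. Chondrocyte markers were present in all samples, with summed CPM of 6144 to 6670 after IL-1β and 16981 to 17562 after vehicle over 10 genes, and 9 of these 10 were called lower and *Prg4*, which encodes lubricin, higher. Of the IL-1β response genes, *Mmp3* had a log2 fold change of 5.48, *Mmp13* one of 2.71 and *Nfkbia* one of 1.89. *Il6*, also on that list, was not tested, with a mean of 1.35 CPM after IL-1β and 0 after vehicle.

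The study asked which genes may be targets of the microRNA miR-146a-5p, so the seed of this microRNA was looked for in the members. The mature sequence is shown from RefSeq (GRCm38.p6, chr11:43374435-43374456, minus strand) with the seed, bases 2 to 8, in capitals, and below it the only match to that seed in a 3′ UTR of the 10 members, with the site in capitals.
miR-146a-5p: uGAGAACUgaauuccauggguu
*Sfrp1* 3′ UTR (GRCm38, chr8:23447912-23447941, plus strand): gtaaatattccAGTTCTCttaggcagcctt
The site, a 7mer, lies at nucleotides 1435 to 1441 of the 3144 nucleotides of the 3′ UTR in the longest coding transcript of *Sfrp1*. The 3′ UTRs of *Frzb*, *Wif1*, *Sfrp4* and *Notum*, of 1392, 771, 2622 and 432 nucleotides, held no such letters. For comparison, 2477 of the 11953 tested genes with an annotated 3′ UTR (20.7%) held a site. A match of letters is a description and does not show that the microRNA binds there. The study predicted targets with TargetScan, from conserved sites of several lengths. The search here took the seed letters alone and does not stand for that prediction.

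RefSeq promoters (GRCm38.p6) of 300 bases, from 250 before to 50 after the start site used by RefSeq, were given for 6 members, *Frzb*, *Wif1*, *Sfrp2*, *Sfrp5*, *Dkk1* and *Dkk2*. They were searched on both strands for TGANTCA, bound by AP-1, for GGANTTTCC, bound by NF-κB, and for CTTTGAA and CTTTGAT, bound by the TCF/LEF factors of the Wnt pathway. Of all 32851 promoters of this length, 7.81% held the AP-1 letters, 1.25% the NF-κB letters, 5.14% CTTTGAA and 3.73% CTTTGAT. Among the 6 members there was 1 match, in *Dkk1*. Its first base lay 117 bases before the RefSeq start site, which is inside the gene as GENCODE draws it, so that it is 52 bases after the GENCODE start. It is shown here with the motif in capitals because *Dkk1* is known as a target of the pathway that it inhibits.
*Dkk1* promoter (chr19:30549596-30549625, minus strand): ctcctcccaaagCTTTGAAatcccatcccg
The promoters of *Frzb* and *Wif1*, the most abundant members, held none of the 4 motifs, and their RefSeq start sites lie 229 and 44 bases inside the GENCODE genes.

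*Frzb* and *Wif1*, which make up most of the pool, and *Sfrp4*, which is rare, were lower after IL-1β, *Notum* was lower by less, and no member was called higher. Counts were scaled by the TMM factors of edgeR, and edgeR's quasi-likelihood test was run over 14404 genes with Benjamini-Hochberg adjustment. A call required an adjusted p-value under 0.05 and a log2 fold change beyond 1 in either direction. Genes were tested when their CPM was above 1 in at least 4 samples, which 5 of the 10 members passed. Of these 5, 3 were called lower and 0 higher, where 2.35% of all tested genes were called lower and 2.86% higher. At any fold change, 4 of the 5 had an adjusted p-value under 0.05 in the lower direction and 0 in the higher, against 19.8% and 20.4% of all tested genes. In 3 of the 5 the highest IL-1β sample was under the lowest vehicle sample, as in 18.2% of all tested genes. Means are given ± SD over the 4 samples of a group (n = 4), and standard errors belong to log2 fold changes. *Sfrp4* passed the filter only through its 4 vehicle samples, so a gene like it could be tested only because it differed. The members were also chosen with earlier results of these data known. These counts are therefore a description of the members. The median log2 fold change of the 5 was -1.42, and that of all tested genes was -0.0012. In such bulk samples, fewer cells that express a gene and less RNA per cell cannot be told apart.

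**Figure D1:**
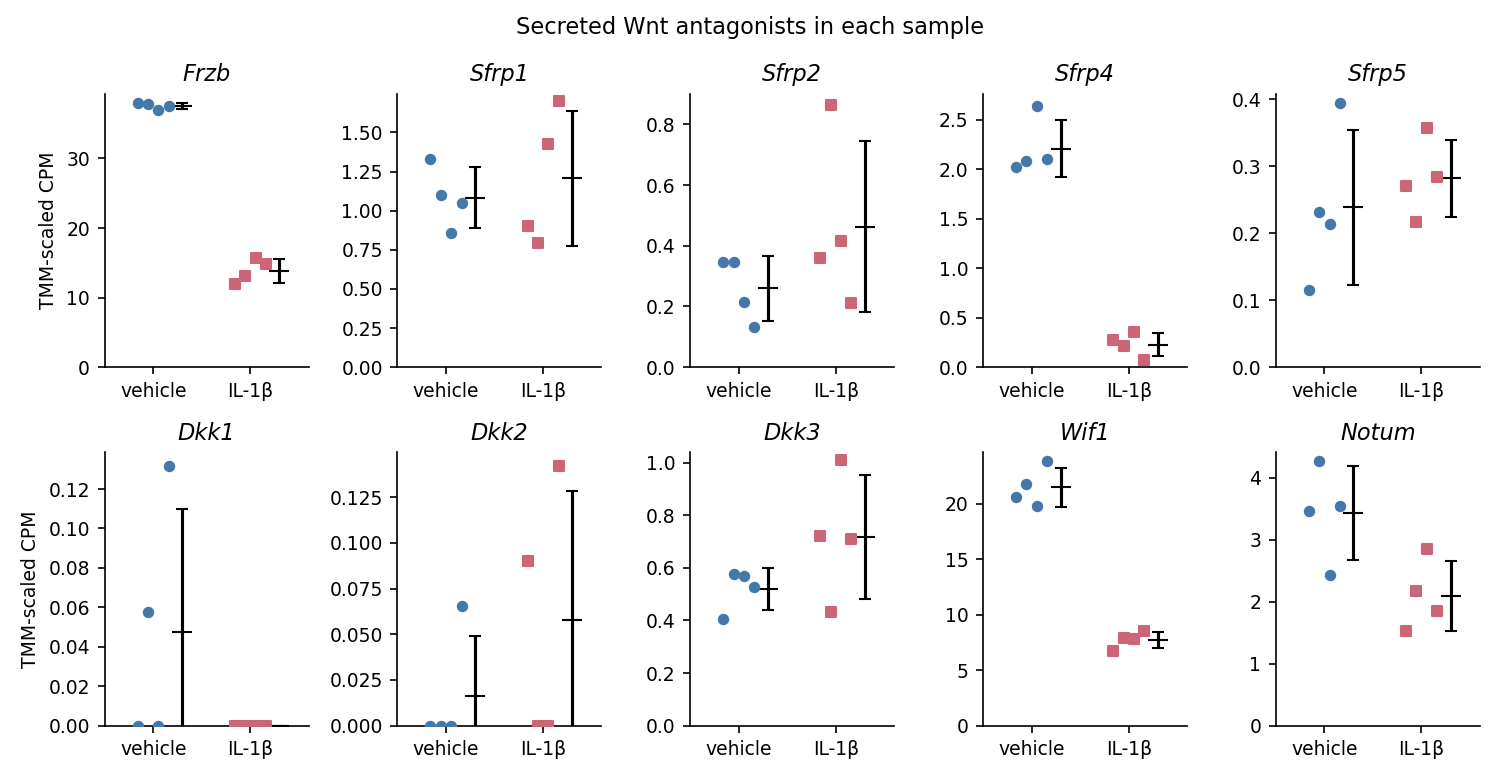
Abundance of the 10 genes in TMM-scaled CPM, one panel per gene, with vehicle samples as blue circles, IL-1β samples as red squares and the mean ± SD (n = 4) as bars cut at 0. The vertical scale differs between panels. *Frzb*, *Wif1* and *Sfrp4* have every IL-1β point under every vehicle point, and the groups overlap in the other 7 genes.

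*Frzb* (ENSMUSG00000027004.3, GRCm38 chromosome 2, 80411970 to 80447625, minus strand) was the most abundant member. Its abundance was 38.0, 37.8, 37.0 and 37.6 CPM in vehicle samples 1 to 4 and 11.9, 13.1, 15.7 and 14.8 CPM in IL-1β samples 1 to 4. The vehicle samples lay close together, the IL-1β samples spread more widely, and the highest IL-1β sample stayed well under the lowest vehicle sample. The means were 37.6 ± 0.430 with vehicle and 13.9 ± 1.71 CPM with IL-1β, a 2.68-fold lower level. The log2 fold change was -1.42 (standard error 0.0654, 95% confidence interval -1.56 to -1.29, adjusted p = 7.1e-17 from edgeR). In total 2404 reads with vehicle and 786 with IL-1β stand behind these means.

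*Wif1* (ENSMUSG00000020218.11, chromosome 10, 121033960 to 121100650, plus strand), which encodes Wnt inhibitory factor 1, was the second most abundant member and fell as well. It had 20.6, 21.7, 19.8 and 23.8 CPM in vehicle samples 1 to 4 and 6.76, 7.86, 7.84 and 8.51 CPM in IL-1β samples 1 to 4. Both groups were tight, with no overlap. The mean was 21.5 ± 1.75 with vehicle and 7.74 ± 0.726 CPM with IL-1β, 2.76-fold lower. The log2 fold change was -1.46 (standard error 0.0877, 95% confidence interval -1.64 to -1.28, adjusted p = 3.54e-14 from edgeR). The confidence intervals of *Frzb* and *Wif1* overlapped over most of their length, and whether their fold changes differ was not tested.

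*Sfrp4* (ENSMUSG00000021319.7, chromosome 13, 19623104 to 19632994, plus strand), an SFRP gene with known roles in bone, had the largest fold change of the members at the lowest depth of those called. The vehicle samples held 35, 36, 37 and 32 reads, and the IL-1β samples held 3, 3, 6 and 1. In CPM these were 2.02, 2.08, 2.64 and 2.10 with vehicle and 0.270, 0.216, 0.356 and 0.0709 with IL-1β. No IL-1β sample came near a vehicle sample, vehicle sample 3 was the highest of its group, and 3 of the 4 IL-1β samples were at or under 3 reads. The means were 2.21 ± 0.288 with vehicle and 0.228 ± 0.120 CPM with IL-1β. The log2 fold change was -3.20 (standard error 0.325, 95% confidence interval -3.86 to -2.53). *Sfrp4* met the rule for a call, but it passed the filter only through its vehicle samples. Its p-value is therefore not given, and the estimate is a description. From the pooled reads, 140 with vehicle and 13 with IL-1β, the level with vehicle was 9.46 times that with IL-1β (exact 95% interval 5.36 to 18.2). This interval covers counting error of the pooled reads alone and leaves out the spread between samples. Reads carrying no molecular identifiers can also be copies of 1 molecule, which it does not cover. Leaving out any vehicle sample took *Sfrp4* under the filter. When 3 samples above 1 CPM were enough, its log2 fold change was -3.55 to -2.90 with single samples left out. It then still entered only through vehicle samples, so this range is a description as well.

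*Notum* (ENSMUSG00000042988.10, chromosome 11, 120653788 to 120661175, minus strand) was lower after IL-1β but was not called, since its fold change was under the threshold. It had 3.46, 4.28, 2.42 and 3.55 CPM in vehicle samples 1 to 4 and 1.53, 2.16, 2.85 and 1.84 CPM in IL-1β samples 1 to 4. The groups overlapped, as IL-1β sample 3 lay above vehicle sample 3. The mean was 3.43 ± 0.762 with vehicle and 2.10 ± 0.565 CPM with IL-1β, with a log2 fold change of -0.68 (standard error 0.197, 95% confidence interval -1.09 to -0.28, adjusted p = 0.00612 from edgeR). Antisense genes share 38.1% of its exon bases, *Notumos* with 2 reads over the IL-1β samples and 6 over the vehicle samples, and *Myadml2os* with 1 and 1. Whether the counting used strand is not stated, so reads of *Notum* and of these genes may not be fully separated.

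*Sfrp1* (ENSMUSG00000031548.7, chromosome 8, 23411502 to 23449632, plus strand), the member with the seed match shown above, did not pass the test. It had 1.33, 1.10, 0.856 and 1.05 CPM in vehicle samples 1 to 4 and 0.901, 0.793, 1.43 and 1.70 CPM in IL-1β samples 1 to 4. IL-1β samples 1 and 2 lay among or below the vehicle samples and IL-1β samples 3 and 4 above them. The means were 1.08 ± 0.193 with vehicle and 1.21 ± 0.431 CPM with IL-1β. The estimate on the log2 scale was 0.17 (standard error 0.271, edgeR's adjusted p = 0.673), and its 95% confidence interval, -0.39 to 0.72, leaves room for a modest change in either direction. Without IL-1β replicate 4 the value was -0.03 (adjusted p = 0.958 from edgeR), so that sample set its sign.

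The other 5 members were near the limit of this depth and were not tested. For *Dkk3*, *Sfrp2* and *Sfrp5* the pooled intervals below, which cover counting error only, stay under 2.68 and 2.76. These are the ratios of vehicle to IL-1β for *Frzb* and *Wif1*. *Dkk1* and *Dkk2* had too few reads to compare. *Dkk3* (chromosome 7, 112116017 to 112159057, minus strand), a divergent Dickkopf gene whose part in Wnt signaling is less clear than that of *Dkk1*, was the best covered of them, with 7, 10, 8 and 8 reads in the vehicle samples and 8, 6, 17 and 10 in the IL-1β samples. Its pooled level with vehicle was 0.707 times that with IL-1β (exact 95% interval 0.433 to 1.15, counting error only). *Sfrp2* (chromosome 3, 83766321 to 83774316, plus strand) had 6, 6, 3 and 2 reads with vehicle and 4, 12, 7 and 3 with IL-1β, a ratio of 0.574 (exact 95% interval 0.292 to 1.10). The groups overlapped in both genes, and both intervals, which leave out the spread between samples, include equal levels. *Sfrp2* shares 16.1% of its exon bases with the antisense gene *Gm26771*, which had 33 reads with IL-1β and 21 with vehicle. *Sfrp5* (chromosome 19, 42197971 to 42202252, minus strand) had 2, 4, 3 and 6 reads with vehicle and 3, 3, 6 and 4 with IL-1β, a ratio of 0.824 (exact 95% interval 0.379 to 1.78). *Dkk1* (chromosome 19, 30545863 to 30549665, minus strand), the best known inhibitor of LRP5 and LRP6, had 0, 1, 0 and 2 reads with vehicle and 0 in all 4 IL-1β samples. *Dkk2* (chromosome 3, 132085292 to 132180304, plus strand), which also binds these co-receptors, had 0, 0, 0 and 1 reads with vehicle and 1, 0, 0 and 2 with IL-1β. Both Dickkopf genes were at or under 3 reads in every sample, so no fold change is given for them.

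To compare the members with each other, their CPM were divided by gene length in kilobases (RPKM). With vehicle, *Frzb* stood first at 11.6 ± 0.133 RPKM, above 74.5% of all tested genes, and *Wif1* second at 8.84 ± 0.720 RPKM, above 68.2%. *Notum* followed at 1.42 ± 0.316 RPKM, *Sfrp4* at 0.529 ± 0.0689 RPKM and *Sfrp1* at 0.248 ± 0.0443 RPKM. The sample ranges of these first 5 were apart from each other and from the next gene, *Dkk3*. *Sfrp1*, at 0.196 RPKM in its lowest vehicle sample, did overlap *Sfrp5*, which reached 0.208 RPKM. *Dkk3*, *Sfrp5* and *Sfrp2*, at 0.155, 0.126 and 0.121 RPKM, did not differ beyond their ranges, and neither did *Dkk1* and *Dkk2*, at 0.0195 and 0.00443 RPKM.

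After IL-1β the first 3 kept their order, with *Frzb* at 4.28 ± 0.528 RPKM, *Wif1* at 3.19 ± 0.299 RPKM and *Notum* at 0.871 ± 0.234 RPKM, each apart from the next. *Sfrp1*, *Sfrp2*, *Dkk3* and *Sfrp5*, from 0.276 down to 0.148 RPKM, overlapped from neighbour to neighbour. *Sfrp4* went from rank 4 to rank 8, at 0.0547 ± 0.0287 RPKM, below *Sfrp5* in all samples and overlapping *Dkk2*. The IL-1β samples held 3, 3, 6 and 1 reads of *Sfrp4* and 3, 3, 6 and 4 of *Sfrp5*. Their order therefore rests mostly on gene lengths of 4179 and 1900 bases.

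The summed RPKM of the 10 genes was 22.8, 23.6, 21.8 and 24.1 in vehicle samples 1 to 4 and 7.91, 9.05, 10.4 and 9.75 in IL-1β samples 1 to 4. The groups were far apart, with means of 23.1 ± 1.02 RPKM and 9.27 ± 1.05 RPKM. *Frzb* and *Wif1* made up most of this pool in both groups. With vehicle, *Frzb* held 50.4% ± 1.98 and *Wif1* 38.3% ± 1.59 of the summed RPKM, and with IL-1β they held 46.2% ± 1.10 and 34.5% ± 2.24. The share of *Notum* was 6.14% ± 1.19 with vehicle and 9.31% ± 1.70 with IL-1β, and that of *Sfrp4* was 2.30% ± 0.397 and 0.597% ± 0.305. The 5 SFRP genes together came to 12.6 ± 0.122 RPKM with vehicle and 4.98 ± 0.594 RPKM with IL-1β, while the 3 Dickkopf genes stayed low, at 0.179 ± 0.0457 and 0.229 ± 0.0723 RPKM.

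The 19 Wnt ligand genes, summed the same way, moved less than the 10 members. Their summed RPKM was 9.95 ± 0.231 with vehicle and 9.20 ± 0.393 with IL-1β. Transcripts of the 10 members therefore stood at 2.32 ± 0.142 times the ligand transcripts with vehicle, from 2.14 to 2.45 over the samples, and at 1.01 ± 0.142 times with IL-1β, from 0.833 to 1.18. This ratio was not among those planned, and it depends on which antagonists are counted. *Igfbp4*, a far more abundant secreted inhibitor that is no member, brings the ratio to 12.8 ± 0.703 with vehicle and 11.1 ± 1.11 with IL-1β, a sum taken after its values were seen, and the groups then overlap. The 10 Frizzled genes went from 80.5 ± 1.30 to 49.2 ± 2.01 RPKM. These are sums of transcript levels, and amounts of secreted protein were not measured.

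**Figure D2:**
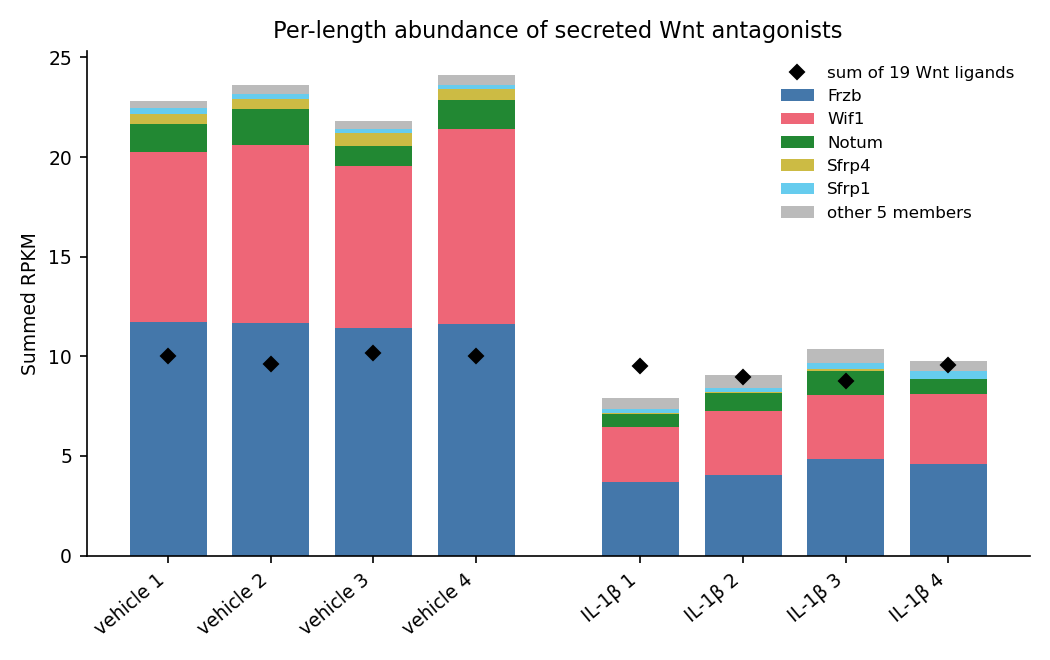
Summed RPKM of the 10 secreted Wnt antagonists in each sample, as bars stacked by gene, with black diamonds for the summed RPKM of the 19 Wnt ligand genes in the same sample. Vehicle bars reach 21.8 to 24.1, far above the diamonds, and IL-1β bars reach 7.91 to 10.4, close to the diamonds.

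Within a sample, the ratio of *Frzb* to *Sfrp4* does not depend on how libraries are scaled. On the log2 scale, with 0.5 read added to each count, it was 4.08 ± 0.193 with vehicle and 5.85 ± 0.871 with IL-1β, so *Sfrp4* was lower relative to *Frzb* after IL-1β by 1.78. All 4 IL-1β samples, from 5.24 to 7.13, lay above all 4 vehicle samples, from 3.79 to 4.22. No p-value is given, since *Sfrp4* passed the filter only through the vehicle samples. The size rests on the few *Sfrp4* reads left after IL-1β, and with 5 reads added to each count the difference was 0.69. Of 3 ratios planned, this was the only one in which both genes passed the filter.

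The other genes of the pathway were taken from a list of 93, chosen with earlier results of these data known, of which 64 were tested. Of these 64, 1 was called higher and 3 lower, where the shares over all tested genes were 2.86% and 2.35%, and at any fold change 12 were higher and 25 lower, against 20.4% and 19.8%. Their median log2 fold change was -0.07. Genes of these lists outside the rule for named genes are named because their group is small, after their values were seen.

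Among 8 other secreted antagonists and Wnt or LRP binders, *Igfbp4* alone was tested. It encodes an insulin-like growth factor binding protein that also blocks LRP6, and its abundance was 461 ± 16.5 with vehicle and 408 ± 26.0 CPM with IL-1β, a log2 fold change of -0.18 (adjusted p = 0.00043 from edgeR). Per length it stood at 104 RPKM with vehicle, above the 10 members together. *Sost*, which encodes the osteocyte protein sclerostin, and *Cer1* had 0 reads in all samples.

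Of 14 tested genes for membrane-bound and intracellular inhibitors, 0 were called, 2 were higher at any fold change (*Axin2* and *Tle3*) and 3 were lower (*Trabd2b*, *Shisa2* and *Tle1*), and their median log2 fold change was 0.00. *Axin2*, the scaffold of the β-catenin destruction complex that is itself a common target of the pathway, went from 0.874 ± 0.300 CPM with vehicle to 1.65 ± 0.408 CPM. On the log2 scale this is 0.90 with a standard error of 0.274 (adjusted p = 0.00913 from edgeR), and all IL-1β samples were above all vehicle samples. *Trabd2b*, which encodes a protease that cleaves Wnts, stood at -0.32 on that scale (adjusted p = 3.12e-07 from edgeR).

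Of 8 tested ligands, 0 were called, and at any fold change 2 were higher and 4 lower, with a median log2 fold change of -0.33. *Wnt11*, the most abundant ligand per length at 2.49 ± 0.189 RPKM with vehicle, rose from 10.3 ± 0.783 to 14.1 ± 0.669 CPM (log2 fold change 0.45, adjusted p = 0.000118 from edgeR). *Wnt9a*, a ligand known from joint formation, rose as well, by 0.67 on the log2 scale (adjusted p = 0.026 from edgeR). *Wnt7b* went the other way, from 5.59 ± 0.799 to 3.05 ± 0.598 CPM (log2 fold change -0.89, adjusted p = 2.02e-05 from edgeR), and the other lower ones were *Wnt5a*, *Wnt5b* and *Wnt10b*. *Porcn* and *Wls*, which add the lipid to Wnts and carry them to the surface, did not pass the test, at -0.19 and -0.07 (adjusted p = 0.0886 and 0.151 from edgeR).

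Of the 4 called genes outside the members, *Fzd8*, *Fzd9* and *Lgr6* encode receptors and were lower. *Fzd8* had 143 ± 3.00 with vehicle and 46.2 ± 1.89 CPM with IL-1β, a log2 fold change of -1.63 (adjusted p = 6.15e-24 from edgeR). *Fzd9* fell from 22.0 ± 1.77 to 8.50 ± 1.02 CPM (log2 fold change -1.36, adjusted p = 2.39e-13). Of 15 tested Frizzleds and co-receptors these 2 were called, 9 were lower at any fold change and 2 higher (*Fzd1* and *Fzd4*), with a median of -0.24. For *Ryk*, the most abundant per length at 34.3 RPKM with vehicle, the estimate was 0.02 (adjusted p = 0.707).

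*Lgr6*, a receptor for the R-spondins, which keep Frizzleds at the surface, fell from 34.4 ± 2.47 to 12.0 ± 1.44 CPM (log2 fold change -1.51, adjusted p = 3.37e-16 from edgeR). The other tested genes of this group were *Lgr4*, at -0.37, and *Rspo3*, at 0.62 (adjusted p = 5.81e-05), and the median of the 3 was -0.37. Of 16 cytoplasmic and nuclear transducers, 0 were called, 4 were higher at any fold change (*Gsk3b*, *Amer1*, *Bcl9* and *Pygo2*) and 3 lower (*Ctnnb1*, *Tcf7l2* and *Lef1*), with a median of 0.02. *Lef1*, a transcription factor that β-catenin binds, fell by 0.65 on the log2 scale (adjusted p = 1.18e-05), and *Amer1*, a component of the destruction complex, rose by 0.27 (adjusted p = 0.0204).

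Common target genes of β-catenin did not move one way. Of 11 tested, *Cd44*, a receptor for hyaluronan, was called, going from 114 ± 6.49 to 325 ± 13.8 CPM (log2 fold change 1.51, adjusted p = 5.66e-23 from edgeR). At any fold change 2 were higher, *Cd44* and *Axin2*, and 4 lower, *Lef1*, *Ccnd1*, *Wisp1* and *Myc*, with a median of -0.14. *Myc*, the most abundant of them at 107 RPKM with vehicle, fell by 0.14 on the log2 scale (adjusted p = 0.00204), and *Ccnd1*, which encodes cyclin D1, by 0.61 (adjusted p = 8.13e-13). These genes answer to other signals as well, so the counts do not measure Wnt activity.

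**Figure D3:**
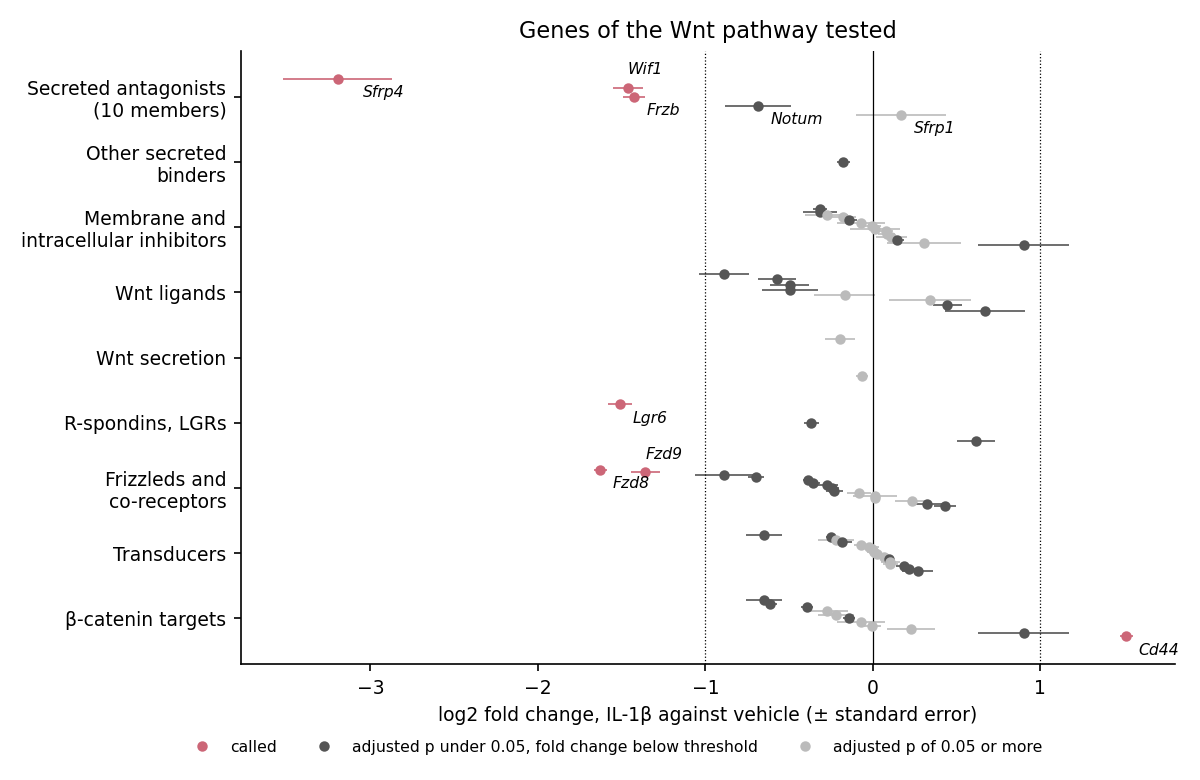
Log2 fold change of IL-1β against vehicle, with its standard error as a line, for every tested gene of the Wnt lists, one list per row and some genes in more than one list. Red marks called genes, dark grey genes with an adjusted p-value under 0.05 inside the fold change threshold (dotted lines at -1 and 1), and light grey the rest. *Sfrp4*, *Wif1* and *Frzb* lie left of the dotted line at -1 together with *Fzd8*, *Fzd9* and *Lgr6*, and *Cd44* alone lies right of the line at 1.

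Markers of other cell types that the digested cartilage could hold were read beside these results. Of 6 osteoblast markers 5 were tested and 3 were called lower (*Bglap*, *Sp7* and *Ibsp*), and their summed CPM was 112 to 128 with IL-1β and 222 to 228 with vehicle, with *Dmp1* at or under 3 reads in every sample. Leukocyte markers summed to 30.3 to 33.8 CPM with IL-1β and 15.0 to 16.8 CPM with vehicle. Of the 3 tested among 9, *Cd14* was called higher. *Cd68* was higher by less, at a log2 fold change of 0.67 (adjusted p = 8.49e-07 from edgeR), and *Lyz2* was lower, at -0.60 (adjusted p = 0.0364 from edgeR). *Cd3e* had 0 reads and *Ptprc*, which marks leukocytes as a whole, 0 to 6 reads in each sample. Fibroblast markers summed to 158 to 174 CPM with IL-1β and 164 to 172 CPM with vehicle, and none of the 3 tested among 6 was called. Endothelial, muscle, erythroid and adipocyte lists each summed to at most 2.21 CPM in every sample, and of their genes only *Alas2* was tested and was not called. The summed chondrocyte and osteoblast markers were thus lower after IL-1β, as *Frzb*, *Wif1* and *Sfrp4* were, with *Prg4* the exception rising from 856 to 2011 CPM, and their part in these results was not tested.

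The genes whose pattern was most like that of *Wif1*, the called member with the largest fold change among those of at least 5 CPM, were named by Pearson's r of log2(CPM + 1) over the 8 samples. They were *Col12a1* (r = 0.998, log2 fold change -0.86), *Smpd3* (0.997, -2.58), *Fgfrl1* (0.997, -1.13), *Rab11fip4* (0.997, -1.19) and *Cpe* (0.997, -0.50). As 151 of the other 14403 tested genes had an r above 0.99, and the 8 points fall into the 2 treatment groups, such values are a description of the shift between the groups.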

How the data were processed

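RNA-Seq covered 4 IL-1β and 4 vehicle samples, grouped by the treatment in their labels. After trimming by cutadapt, reads were aligned by STAR (genome mm10, GENCODE vM20) and assigned to genes by featureCounts. The authors deposited counts, whole numbers for each symbol. The methods also name a correction by RUVseq. Whether it was applied to these counts, and whether strand was used, is not given in the sources used here. The gene length that the authors deposited beside the counts (unit: other) equalled the total exon length in GENCODE vM21 (GRCm38) for all 10 members and served for RPKM. The miRNA-Seq and the other experiments of the study were not analysed here.

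TMM factors were 0.984 to 1.01. The quasi-likelihood test of edgeR 4.0.16 (R 4.3.3) had treatment as its single term and ran over 14404 of 54658 genes, those that exceeded 1 CPM in 4 or more samples, with Benjamini-Hochberg adjustment over all of them. In simulated data with 200 of 14404 genes changed by a log2 fold change of 2, edgeR and DESeq2 each recovered 100% with 0 false calls. Only genes past the filter were simulated. Smaller changes, such as those of *Frzb*, *Wif1* and *Notum*, were not, so recovery at their size is not known. Total counts were 10992355 to 17456063 per sample, and 3 counts were the floor for detection.

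The members and the lists were chosen with earlier results of these data known. Named genes were all members, the called genes of each other list, the 2 of each list with the largest absolute log2 fold change, the most abundant ligand, receptor and target per length, and the 5 genes most like 1 member. The alternatives were DESeq2 1.42.0, its size factors, the total library size, other filters on low counts, the replicate number as a block, 1 factor of unwanted variation (RUVs), glmTreat, no threshold on the fold change, other numbers of added reads and each sample left out in turn. Python 3.11.15 with scipy 1.17.1, pandas 2.3.3 and numpy 2.4.6 gave the other values, and matplotlib 3.10.9 the figures.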

Additional observations from a re-analysis of the deposited data

Results flagged for a closer look

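Dixon's ratio at its 95% critical value was applied to 140 groups of 4 values from the tested members, the tested pathway genes and the library totals. A sample stood apart in 7 groups, the number that chance gives at 1 group in 20. Among the members this was *Sfrp4*, whose vehicle replicate 3 reached 2.639 CPM while the other vehicle samples held 2.019 to 2.103 CPM. In the same replicate *Wnt7b* reached 6.775 CPM (others 5.019 to 5.315 CPM). Vehicle replicate 4 was apart for *Apcdd1*, at 3.417 CPM (others 4.557 to 4.737 CPM), and for *Lef1*, at 15.9 CPM (others 12.59 to 12.98 CPM). The rest were *Apc* in vehicle replicate 2, at 105.7 CPM (others 108 to 108.4 CPM), *Wnt4* in vehicle replicate 1, at 0.8077 CPM (others 1.284 to 1.329 CPM), and *Csnk1a1* in IL-1β replicate 1, at 435.6 CPM (others 441.8 to 442.9 CPM).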

How the results depend on the processing

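*Frzb* and *Wif1* were called lower under every alternative run, with log2 fold changes from -1.49 to -1.36 and from -1.51 to -1.41 when single samples were left out. Of the members, 3 were called under DESeq2, its size factors, the total library size, no filter, 1 factor of unwanted variation and glmTreat, 4 (*Notum* added) with no threshold on the fold change, and 2 with a CPM above 1 in all 8 samples. *Sfrp4* exceeds 1 CPM in its 4 vehicle samples only, so leaving out any vehicle sample took it out of the test and left 2 members called. When 3 samples over 1 CPM were enough, an alternative chosen after seeing the data, 3 were called with any sample left out. *Sfrp4*, at -3.55 to -2.90, still entered only through vehicle samples, so its calls there are a description and no check. *Sfrp1* reversed without IL-1β replicate 4, to -0.0268 (adjusted p = 0.958 from edgeR), and to -0.0287 with that later filter (adjusted p = 0.956), and lay between -0.03 and 0.33 over the samples left out. The log2 ratio of *Frzb* to *Sfrp4* differed by 1.35 to 1.98 with single samples left out and is a description, since *Sfrp4* passed the filter only through vehicle samples.

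Of the other pathway genes, 4 were called, 37 with no threshold on the fold change, and 4 to 5 with single samples left out. Of all genes, 751 were called, 1206 without a filter on low counts, 437 with glmTreat, 5796 with no threshold on the fold change, and 649 to 722 with single samples left out. The groups share replicate numbers, but deviations of same-numbered samples from their group means had r of -0.0699 to 0.0416, so the numbers were not read as pairs. With the replicate block, 3 members, 411 genes higher and 340 lower were called. The difference of 1.78 in the ratio of *Frzb* to *Sfrp4* is the same with that block by arithmetic, so it is no check. At this depth, changes inside the pooled intervals of *Dkk3*, *Sfrp2* and *Sfrp5* could not be shown, and none could be shown in *Dkk1* and *Dkk2*.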
